A study of Hordeum vulgare with 18 samples.

Results

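Expression of 4 membrane transport genes of barley was followed in leaves of 3 genotypes under low nitrate (LN) and high nitrate (HN): a gene annotated as phosphate transporter 3;2 (HORVU5Hr1G068060), a chloride channel B gene (HORVU6Hr1G017920), a ureide permease 1 gene (HORVU7Hr1G108790) and a major facilitator superfamily gene (HORVU3Hr1G082580). They are 4 of the 43050 genes counted. They were chosen because the study named them among genes called between LN and HN in a pair of genotypes: the phosphate transporter gene as higher under LN in GP and M4, and the other 3 genes as lower under LN in GP and M5. The LN and HN values of those genotypes are therefore given as descriptions with no test. Tests were made on the nitrate difference in the third genotype, the differences between genotypes and the differences between harvests. The study had already reported the third-genotype differences as not significant.

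RNA was sequenced from 18 libraries, 3 for each of 6 groups: leaves of GP (Golden Promise), M4 (Laanaceur) and M5 (Oussama), each grown with 0.5 mM nitrate (LN) or 5 mM nitrate (HN). Leaves of 1 or 2 plants made up a sample, and the study states an age of 14 days. The label of GP HN replicate 1 also names 14 days and gives no planting date. The labels of the other samples give one planting date, 26 October. Their harvests fell on 9 or 16 November, 22 March or 12 April, so these labels do not give one age at harvest. Replicate numbers mark harvests, with 1 and 2 in November and 3 and 4 in the following spring; GP LN held numbers 1, 2 and 3, GP HN 1, 2 and 4, M4 LN 1, 3 and 4, M4 HN 1, 2 and 4, and both M5 groups 1, 2 and 3. The labels of HN samples name labelled nitrate given before sampling and those of LN samples do not, phosphate was supplied alike in both solutions, and chloride came with calcium under LN and with sodium under HN, so nitrate and these other differences of the treatments cannot be told apart.

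Some libraries need naming before the values. Genes read in only a single genotype showed reads of M5 in GP LN replicate 1, at 45.8% of their own level (17 of 20 such genes), and reads of M4 in GP HN replicate 1, at 16.4% (16 of 16). In M5 LN replicate 1 reads of M4 stood at 6.44%, from 2 of 18 such genes, and every other library was at or under 0.255%. Values of the 4 genes without both GP replicate 1 libraries are given beside the GP results. M4 HN replicate 4 is titled HN while its treatment label names 0.5 mM nitrate; it was kept as HN by its title. No annotation of leaf cell types was in the files, so the tissue label was not checked against markers, and in whole leaves fewer cells of a type and less RNA per cell cannot be told apart.

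Phosphate carriers of the PHT3 family move inorganic phosphate across the inner mitochondrial membrane, where it is needed for ATP synthesis. Chloride channels of the CLC family sit in endomembranes; in Arabidopsis a close relative loads nitrate into the vacuole in exchange for protons, and others of the family carry chloride. Ureide permeases of Arabidopsis carry allantoin, a nitrogen-rich product of purine breakdown, and also uracil. The major facilitator superfamily is a large family of secondary carriers for sugars, ions, nitrate, peptides and many other small molecules, and the annotation names no substrate for HORVU3Hr1G082580. Nitrogen, phosphate and chloride supply interact in plants, since nitrate and chloride are the main anions of the vacuole and ureides are a store of organic nitrogen.

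Reads per library ran between 212 and 1068 for the phosphate transporter gene, 220 and 1106 for the chloride channel gene, 26 and 596 for the ureide permease gene, and 117 and 3157 for the major facilitator gene. All 4 genes were above 1 CPM (counts per 1000000 gene reads) in 18 of 18 libraries. The reads lay almost entirely on the annotated strand: the share on the other strand over all libraries was at most 0.139% for 3 of the genes and 1.32% (142 reads) for the chloride channel gene, where it ran between 0.119% and 3.86% of a library's reads. Values below are CPM scaled by TMM (trimmed mean of M values), and they compare libraries for a gene, not genes with each other, since the files give no gene lengths.

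**Figure D1:**
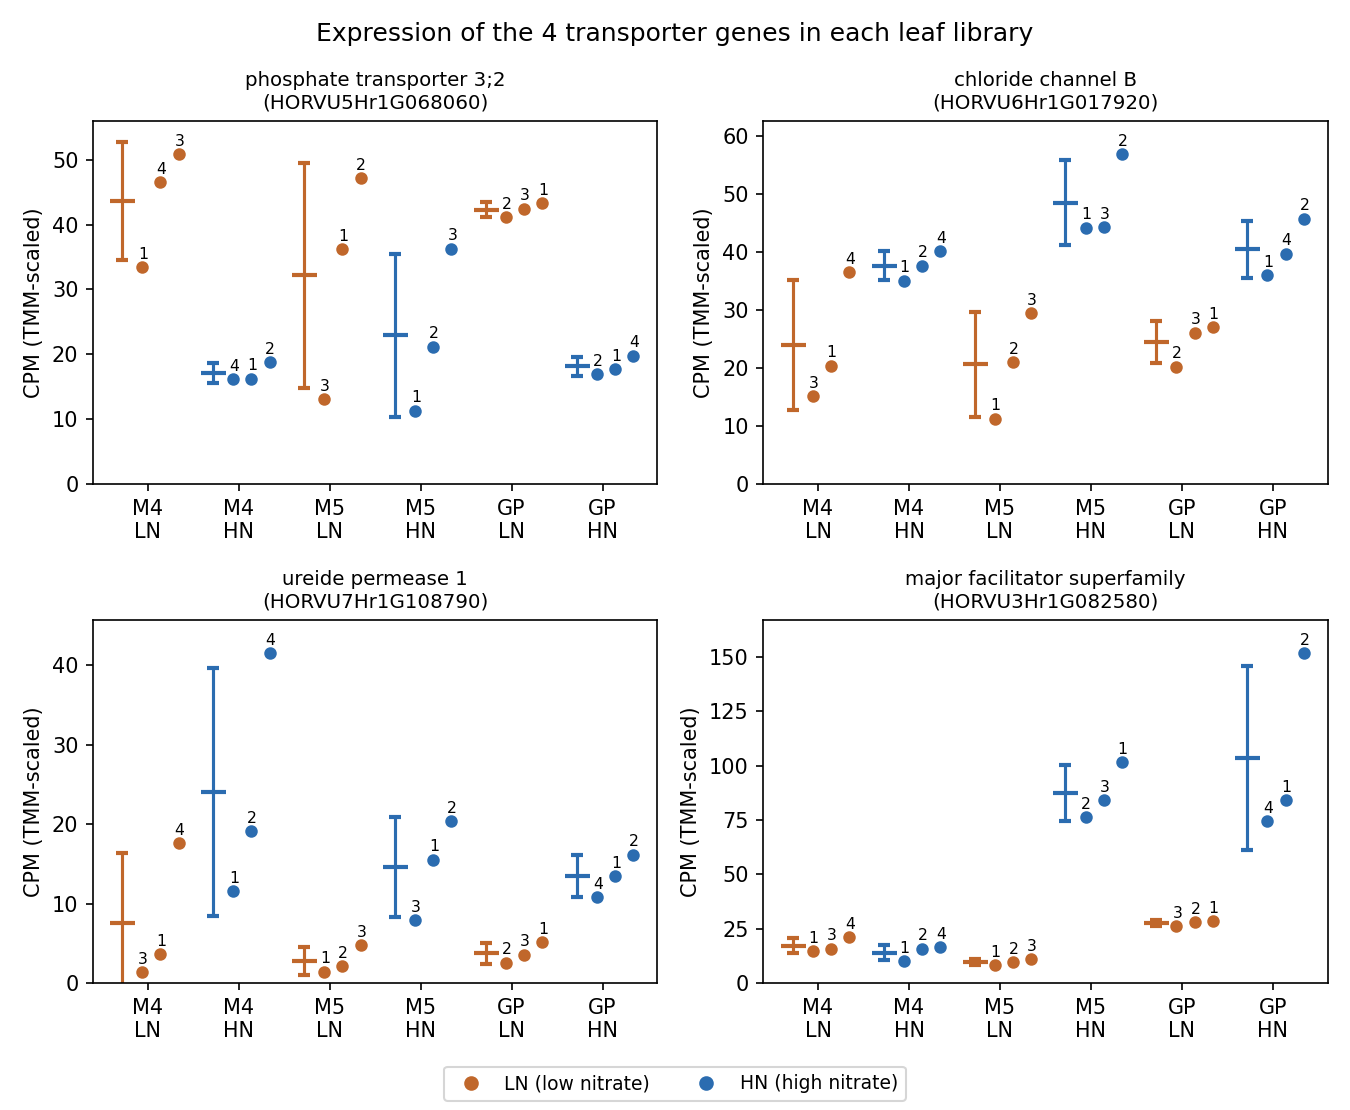
CPM (linear axis) of the 4 genes in each library, in LN (orange, left) and HN (blue, right) of M4, M5 and GP; points are libraries marked with their replicate number, and bars are the mean ± SD of 3 libraries (for the ureide permease gene in M4 LN the SD runs below 0 and is cut at the axis). The major facilitator gene lies between 10.1 and 21.3 CPM in all 6 M4 libraries, while GP HN and M5 HN lie between 74.5 and 152 CPM.

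The phosphate transporter gene was the member that was higher under LN. In GP it had 43.3, 41.1 and 42.5 CPM in LN leaves (replicates 1, 2 and 3), against 17.7, 17.0 and 19.8 CPM in HN leaves (replicates 1, 2 and 4). In M4 it had 33.4, 50.9 and 46.5 CPM in LN leaves (replicates 1, 3 and 4), against 16.2, 18.8 and 16.2 CPM in HN leaves (replicates 1, 2 and 4). The LN libraries thus all lay above the HN libraries, both in GP and in M4, which chose the gene, and the GP LN libraries had a coefficient of variation of 2.66%. The LN to HN log2 fold change was 1.22 (SE 0.433) in GP, or 1.17 without both GP replicate 1 libraries, and 1.36 (SE 0.429) in M4. Of the tested genes, 7.22% had all LN libraries above the HN libraries in GP, 7.16% in M4 and 1.48% in both.

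M5 did not take part in that choice. Its LN leaves had 36.2, 47.2 and 13.1 CPM of the phosphate transporter gene (replicates 1, 2 and 3), against 11.3, 21.2 and 36.3 CPM in HN leaves (replicates 1, 2 and 3). The groups overlapped because of replicate 3, whose LN library was the lowest of the LN libraries and whose HN library was the highest of the HN libraries. The log2 fold change of 0.53 (SE 0.422, 95% interval -0.38 to 1.45) did not pass edgeR's quasi-likelihood test (adjusted p = 0.912), in a comparison where 0.0631% of the 19021 tested genes passed (12 genes) and 5.38% had all LN libraries above the HN libraries. Without M5 LN replicate 3 the value was 1.13 (adjusted p = 0.123), and without M5 HN replicate 3 it was 1.07 (adjusted p = 0.63). Without M5 HN replicate 1 it was 0.14 (adjusted p = 0.971), without M5 LN replicate 2 it was 0.18 (adjusted p = 0.958), and without M5 LN replicate 1 it was 0.30 (adjusted p = 1). The same replicate 3 libraries stayed with their labelled groups in the major facilitator gene, at 11.0 CPM in LN and 84.2 CPM in HN. They did so in the chloride channel and ureide permease genes and in HORVU3Hr1G082460 as well. Among transport genes named below, HORVU7Hr1G098550, HORVU3Hr1G088190, HORVU7Hr1G074640 and HORVU7Hr1G074660 had a higher M5 mean in LN. In replicate 3 they had 5.20, 9.67, 4.29 and 25.2 CPM in LN, against 8.39, 17.7, 14.3 and 69.0 CPM in HN. The cause was not tested.

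In the order of group means, the phosphate transporter gene stood at 43.6 ± 9.09 CPM in M4 LN, 42.3 ± 1.12 in GP LN, 32.2 ± 17.4 in M5 LN, 22.9 ± 12.6 in M5 HN, 18.2 ± 1.46 in GP HN and 17.1 ± 1.51 in M4 HN (SD, n = 3 each). No group in this order was separated from its neighbour, since the M5 libraries ran across the range of both nitrate levels.

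The chloride channel gene was lower under LN in each genotype on average. In GP it had 27.1, 20.3 and 26.1 CPM in LN leaves, against 36.0, 45.7 and 39.7 CPM in HN leaves. In M5 it had 11.3, 21.1 and 29.5 CPM in LN leaves, against 44.2, 56.9 and 44.3 CPM in HN leaves. The groups did not overlap in either of these genotypes, which chose the gene, and the log2 fold changes were -0.61 (SE 0.314) in GP and -1.25 (SE 0.305) in M5. Of the tested genes, 9% had all LN libraries below the HN libraries in GP and 6.61% in M5. Leaving out both GP replicate 1 libraries gave a GP difference of -0.76.

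In M4, which did not choose it, the chloride channel gene had 20.4, 15.1 and 36.5 CPM in LN leaves, against 35.1, 37.7 and 40.1 CPM in HN leaves. Replicate 4 of LN lay within the range of the HN libraries, and the other LN libraries lay below all of them. The log2 fold change of -0.68 (SE 0.308, 95% interval -1.35 to -0.01) had an unadjusted p of 0.0465 in edgeR's quasi-likelihood test and did not pass adjustment over all genes (adjusted p = 0.635). Without M4 LN replicate 4 the difference was -1.07 (adjusted p = 0.281), without M4 LN replicate 3 it was -0.41 (adjusted p = 0.89), and without M4 HN replicate 4, whose label is in doubt, it was -0.82 (adjusted p = 0.608). The gene's levels in the groups ran in the order M5 HN (48.4 ± 7.32 CPM), GP HN (40.5 ± 4.90), M4 HN (37.6 ± 2.51), GP LN (24.5 ± 3.68), M4 LN (24.0 ± 11.2) and M5 LN (20.6 ± 9.12; SD, n = 3 each). The only neighbours in that order that did not overlap were M4 HN and GP LN. By their means the 3 HN groups stood above the 3 LN groups, an order that rests in part on GP and M5, which chose the gene. The libraries were not separated in this way: M4 LN replicate 4, at 36.5 CPM, lay above M4 HN replicate 1 (35.1 CPM) and GP HN replicate 1 (36.0 CPM).

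The ureide permease gene had the widest spread between replicates of the 4 genes, with a biological coefficient of variation of 50.8%, against 24.0% for genes of its abundance in the fitted trend. In GP it had 5.18, 2.58 and 3.61 CPM in LN leaves, against 13.4, 16.2 and 10.8 CPM in HN leaves. In M5 it had 1.44, 2.12 and 4.78 CPM in LN leaves, against 15.5, 20.4 and 7.97 CPM in HN leaves. No LN library reached an HN library of its genotype in these groups, which chose the gene. The log2 fold changes were -1.41 (SE 0.649) in GP, or -1.49 without both GP replicate 1 libraries, and -2.27 (SE 0.665) in M5, and the M5 value was -3.32 without M5 LN replicate 3.

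In M4 the ureide permease gene had 3.62, 1.43 and 17.6 CPM in LN leaves (replicates 1, 3 and 4), against 11.5, 19.1 and 41.6 CPM in HN leaves (replicates 1, 2 and 4). Replicate 4 was the highest library of both M4 groups, and the groups overlapped through it. The log2 fold change was -1.83 (SE 0.630, 95% interval -3.19 to -0.46), with an unadjusted p of 0.0126 and an adjusted p of 0.617 in edgeR's quasi-likelihood test. It was -2.82 without M4 LN replicate 4 (adjusted p = 0.244) and -1.75 without M4 HN replicate 4 (adjusted p = 0.611). By group means the order was M4 HN (24.1 ± 15.6 CPM), M5 HN (14.6 ± 6.25), GP HN (13.5 ± 2.67), M4 LN (7.55 ± 8.77), GP LN (3.79 ± 1.31) and M5 LN (2.78 ± 1.76; SD, n = 3 each), and every pair of neighbours overlapped.

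The major facilitator gene separated the genotypes. In GP it had 28.5, 28.2 and 26.3 CPM in LN leaves, against 84.3, 152 and 74.5 CPM in HN leaves, a log2 fold change of -1.85 (SE 0.263). In M5 it had 8.31, 9.55 and 11.0 CPM in LN leaves, against 102, 76.4 and 84.2 CPM in HN leaves, a log2 fold change of -3.20 (SE 0.271). That value helped to choose the gene, so its rank, with 16 of the 19021 tested genes below it, is a description. The groups were far apart in both of these genotypes, which chose the gene, and the LN mean was 0.267 of the HN mean in GP and 0.11 of it in M5. Leaving out both GP replicate 1 libraries gave -2.02 in GP. Of all tested genes, 1.36% had all LN libraries below the HN libraries in both GP and M5, which is the pattern shared by the 3 genes chosen for being lower there.

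In M4 the major facilitator gene had 14.8, 15.8 and 21.3 CPM in LN leaves, against 10.1, 15.8 and 16.5 CPM in HN leaves. The groups overlapped, and the log2 fold change of 0.36 (SE 0.264, 95% interval -0.21 to 0.93) did not pass edgeR's quasi-likelihood test (adjusted p = 0.698). Its value was 0.14 without M4 LN replicate 4 (adjusted p = 0.879), 0.18 without M4 HN replicate 1 (adjusted p = 0.928) and 0.55 without M4 HN replicate 4 (adjusted p = 0.629). The interval of the M4 difference lay above the values of GP and M5, but the difference between the genotypes' responses was not tested, since the GP and M5 values chose the gene.

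**Figure D2:**
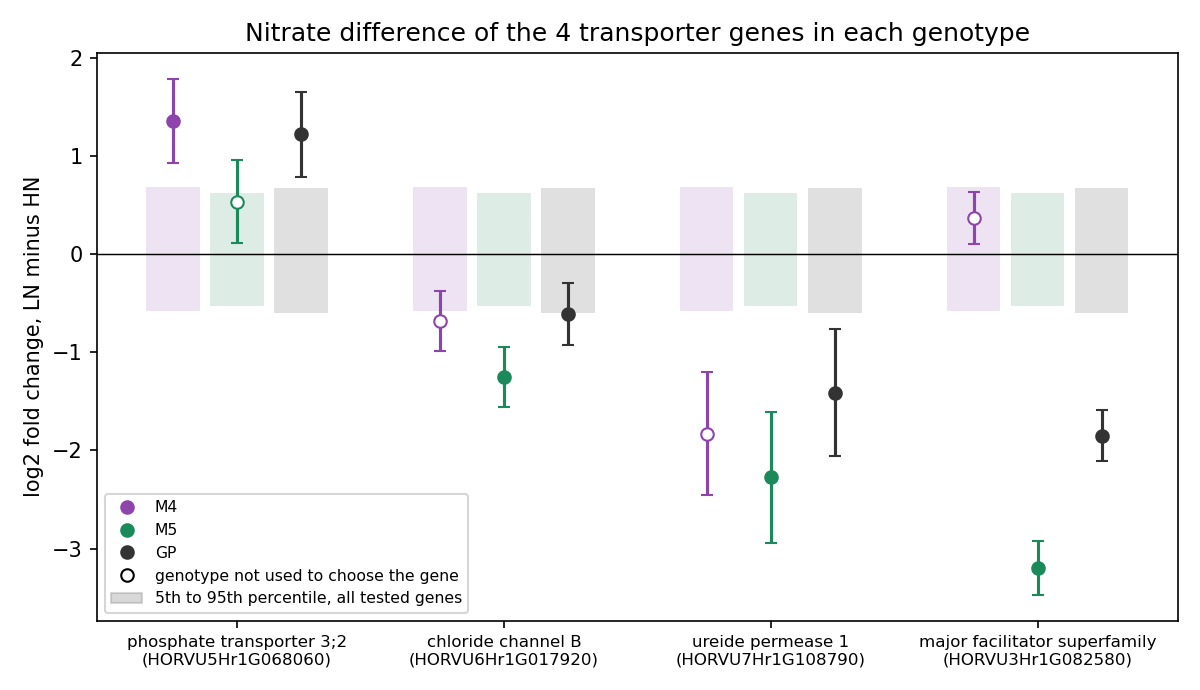
Log2 fold change of LN minus HN for each gene in M4, M5 and GP, with bars of ± 1 SE from edgeR; open circles mark the genotype that did not choose the gene, and shaded bands run between the 5th and 95th percentile of all 19021 tested genes. The open M4 circle of the major facilitator gene is at 0.36, and its M5 and GP values are at -3.20 and -1.85.

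None of the 4 differences in the genotype that did not choose the gene (M5 for the phosphate transporter gene, M4 for the other 3) passed the adjusted threshold of 0.05. The study had already reported these 4 differences as not significant from the same libraries, so this outcome repeats its own. None of the 3 genes chosen in GP and M5 had all LN libraries below the HN libraries in M4, where 6.69% of the tested genes did. In M4 edgeR called 0 of the 19021 tested genes between LN and HN (1482 genes, 7.79%, had an unadjusted p under 0.05, and DESeq2 called 21), so the chloride channel and ureide permease genes, at unadjusted p of 0.0465 and 0.0126, were among those 7.79%. By direction, LN was lower than HN in the chloride channel and ureide permease genes in each of the 3 genotypes.

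Libraries of the same genotype that shared a replicate number, and hence a harvest, formed 7 LN and HN pairs. The GP and M4 pairs are of the genotypes that chose the phosphate transporter gene. The GP and M5 pairs are of those that chose the other members. Counts of pairs are therefore descriptions, and the share of all genes with such counts was not obtained. The phosphate transporter gene was higher in LN in 6 of the 7 pairs, and the exception was M5 replicate 3, at -1.46 on the log2 scale against 1.67 and 1.15 in the other M5 pairs. The chloride channel gene was lower in LN in 7 of 7 pairs, by log2 differences between -1.96 and -0.13 with a median of -0.78. The ureide permease gene was lower in 7 of 7 pairs as well, between -3.34 and -0.73 with a median of -1.64. The major facilitator gene was lower in the 5 pairs of GP and M5 and higher in both M4 pairs, at 0.55 (replicate 1) and 0.37 (replicate 4). In the M4 replicate 4 pair both treatment labels name 0.5 mM nitrate, and it was kept as an LN and HN pair by the titles. In the M4 replicate 1 pair the chloride channel and ureide permease genes were at -0.78 and -1.64. For the M5 replicate 3 pair the chloride channel (-0.58) and ureide permease (-0.73) differences were the smallest of the 3 M5 pairs, while that of the major facilitator gene (-2.92) was close to the others (-3.59 and -2.98).

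**Figure D3:**
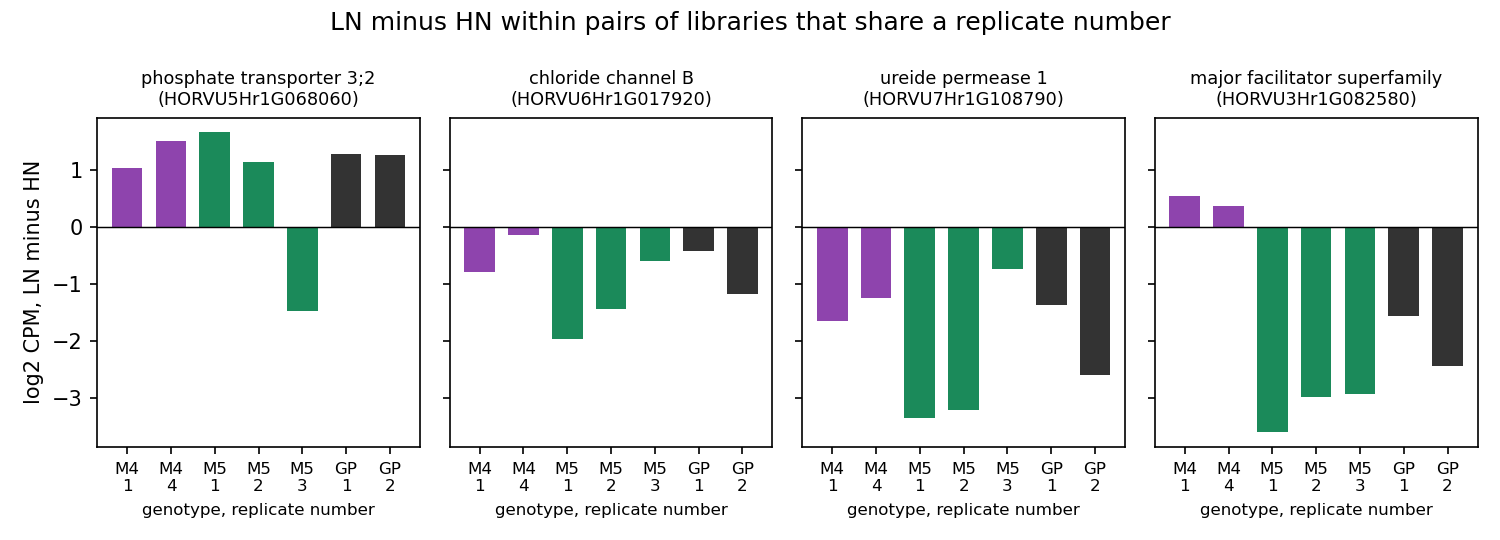
Difference in log2 CPM, LN minus HN, within each of the 7 pairs of libraries with the same genotype and replicate number (M4 purple, M5 green, GP black); each bar is a pair. The bars of the chloride channel and ureide permease genes are all below 0, the phosphate transporter gene has a bar below 0 only in M5 replicate 3, and the major facilitator gene has bars above 0 only in M4. Both libraries of the M4 replicate 4 pair have a treatment label of 0.5 mM nitrate.

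Genotypes were then compared with nitrate averaged out. The choice of genes did not use this average, but it rested on the same libraries, so the adjusted p below are not fully independent of it. The study listed 18 genes as lower under LN in GP and M5. Of these, 12 were called lower in M4 minus GP, 3 in M5 minus GP and 8 in M4 minus M5. How far the choice shaped these differences was not tested. The major facilitator gene was lower in M4 than in GP by a log2 fold change of -1.77 (SE 0.190, adjusted p = 3.82e-05), lower in M5 than in GP by -0.85 (SE 0.183, adjusted p = 0.0076) and lower in M4 than in M5 by -0.92 (SE 0.202, adjusted p = 0.00762; edgeR quasi-likelihood test). The other 3 genes did not pass in any of the 3 comparisons, so 1 of 4 genes was called in each, against 15.9%, 12.5% and 15.1% of all tested genes. Calls of a gene as lower were made for 7.7% of genes in M4 against GP, 7.08% in M5 against GP and 6.47% in M4 against M5, and 1.3% of genes (248) were called in all 3 comparisons, as the major facilitator gene was. Without both GP replicate 1 libraries its M4 to GP and M5 to GP differences were -1.73 (adjusted p = 0.000314) and -0.83 (adjusted p = 0.034). With each library left out in turn, M4 HN replicate 4 included, the 3 calls stayed, with adjusted p of at most 0.000427 (M4 minus GP), 0.0306 (M5 minus GP) and 0.0363 (M4 minus M5).

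The genotype differences of this gene took a different form at each nitrate level. Under HN the M4 mean of 14.1 ± 3.53 CPM was lower than the GP mean of 104 ± 42.1 CPM by 7.34 times and lower than the M5 mean of 87.4 ± 12.9 CPM by 6.19 times, with no overlap of libraries (SD, n = 3 each). Under HN the M5 and GP libraries overlapped. Under LN the M4 mean was 17.3 ± 3.50 CPM, 0.625 of the GP mean of 27.7 ± 1.21 CPM, and the M5 mean of 9.62 ± 1.35 CPM was 0.348 of it, again with no overlap. The share of all genes without overlap between genotypes at one nitrate level was not counted. M4 thus stood below M5 under HN and above M5 under LN, by 1.80 times, and the order of the 6 groups was GP HN, M5 HN, GP LN, M4 LN, M4 HN and M5 LN. In that order GP LN was separated from both of its neighbours, and the remaining neighbours overlapped. GP LN replicate 1, in which reads of M5 were found, had 28.5 CPM, close to the 28.2 and 26.3 CPM of the other GP LN libraries. This lay above the 8.31 to 11.0 CPM of M5 LN and below the 76.4 to 102 CPM of M5 HN. Which M5 leaves those reads came from, and how far they moved this value, was not tested.

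**Figure D4:**
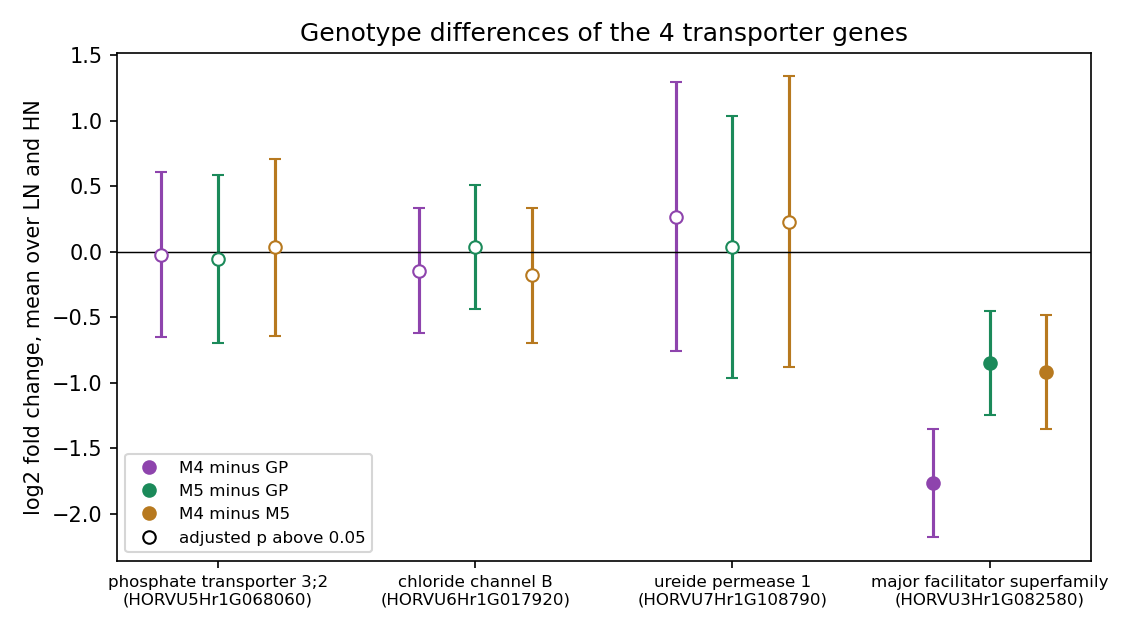
Log2 fold changes between genotypes averaged over LN and HN for each gene, with 95% intervals from edgeR; filled circles passed an adjusted p of 0.05. Only the major facilitator gene has filled circles, at -1.77 (M4 minus GP), -0.85 (M5 minus GP) and -0.92 (M4 minus M5).

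For the phosphate transporter gene the genotype differences were -0.02 for M4 minus GP (95% interval -0.65 to 0.61), -0.06 for M5 minus GP (-0.70 to 0.58) and 0.03 for M4 minus M5 (-0.64 to 0.71). For the chloride channel gene they were -0.14 (-0.62 to 0.33), 0.04 (-0.44 to 0.51) and -0.18 (-0.70 to 0.34) in the same comparisons. For the ureide permease gene they were 0.27 (-0.76 to 1.30), 0.04 (-0.96 to 1.04) and 0.23 (-0.88 to 1.34). The intervals of the ureide permease gene were the widest of the 4 genes and reached past a log2 difference of 1 in each comparison, so a 2-fold difference there lay within the error. Without both GP replicate 1 libraries the values of M4 minus GP and M5 minus GP were 0.70 and 0.43 for the ureide permease gene, 0.014 and 0.16 for the chloride channel gene, and 0.11 and 0.074 for the phosphate transporter gene, and none passed. In a fit with no replicate block the ureide permease gene was at 0.90 in M4 minus GP (adjusted p = 0.229) and 1.07 in M4 minus M5 (adjusted p = 0.155). Within a nitrate level the single separation among these 3 genes was the chloride channel gene under HN, at 35.1 to 40.1 CPM in M4 and 44.2 to 56.9 CPM in M5. The M4 library at 40.1 CPM was HN replicate 4, whose label is in doubt. The share of all genes separated in this comparison was not counted, so no weight is given to it.

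No difference between harvests passed the test. The difference of spring minus November harvests, within groups, was 0.08 (SE 0.260) for the phosphate transporter gene, 0.22 (SE 0.185) for the chloride channel gene, 0.48 (SE 0.397) for the ureide permease gene and 0.005 (SE 0.156) for the major facilitator gene on the log2 scale. None passed edgeR's test (adjusted p = 1 for each), where 0% of all genes were called (885 genes, 4.65%, had an unadjusted p under 0.05, and DESeq2 called 9). An F test over the 4 replicate numbers gave an unadjusted p of 0.0965 for the ureide permease gene and 0.797, 0.359 and 0.52 for the phosphate transporter, chloride channel and major facilitator genes, all with an adjusted p of 1; it called 0 genes in all (593 genes, 3.12%, at an unadjusted p under 0.05, and 17 with DESeq2). GP HN replicate 1 has no harvest date in its label and was placed by its number.

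The deviations of the chloride channel and ureide permease genes from their group means were correlated. After each library's log2 CPM was set against its group mean, which removes nitrate and genotype, the deviations of these genes had a Pearson r of 0.841 and a Spearman rho of 0.765 over 18 libraries. An exact permutation of libraries within groups, with 46656 arrangements, gave a two-sided p of 0.000386 for r and 0.00139 for rho, and 0.00231 and 0.00836 after adjustment over the 6 pairs of the 4 genes. These arrangements mix harvests within a group. With libraries rearranged only within a group and a harvest season, 64 arrangements remained. The exact permutation p was then 0.0313 for both r and rho, and 0.188 after adjustment. That p is the smallest the 64 arrangements allow, since each has another lying equally far from their mean on the opposite side. The adjusted p could be lower only if other pairs were as extreme, so it does not decide whether the correlation holds. The residuals of both genes after groups and replicate numbers were fitted had an r of 0.873. Without the 2 libraries farthest from the median of the chloride channel deviations r was 0.818, and leaving out both GP replicate 1 libraries gave 0.846. In M4 LN the deviations of both genes were lowest in replicate 3 and highest in replicate 4, and in M5 LN they were lowest in replicate 1 and highest in replicate 3. Of the other genes compared, 0.0391% had a within-group r with the chloride channel gene at least as high (7 of 17891, the ureide permease gene among them).

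**Figure D5:**
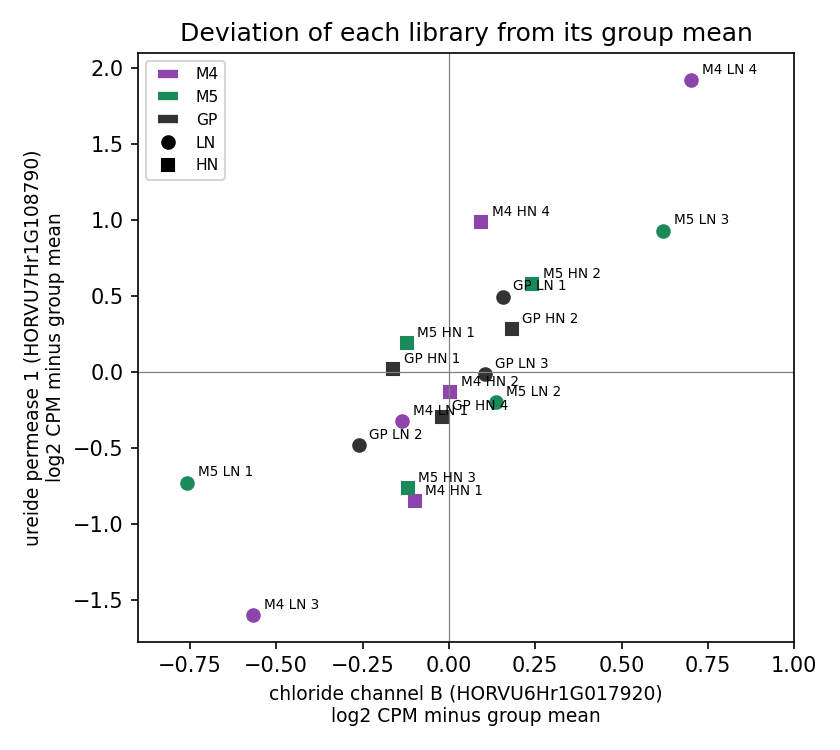
Deviation of each of the 18 libraries from its group mean in log2 CPM, for the chloride channel gene (x axis) and the ureide permease gene (y axis); circles are LN and squares HN, in purple for M4, green for M5 and black for GP. The libraries run from M4 LN 3 and M5 LN 1 at the lower left to M5 LN 3 and M4 LN 4 at the upper right (r = 0.841).

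Among the other pairs, the ureide permease and major facilitator genes had an r of 0.555 (rho 0.637; exact permutation p = 0.016, adjusted p = 0.0479 for r and 0.0455 for rho; r = 0.545 without the 2 farthest libraries), and the chloride channel and major facilitator genes an r of 0.461 (rho 0.513; exact permutation p = 0.0276, adjusted p = 0.0551 for r and 0.0953 for rho; r = 0.348 without the 2 farthest libraries). The phosphate transporter gene had an r between -0.367 and -0.242 with the other 3 genes, with adjusted exact permutation p between 0.255 and 0.529. These genes were measured in the same libraries, and part of a shared deviation can be the library itself. With harvest seasons held, the exact permutation p of the ureide permease and major facilitator pair was 0.156 for r (adjusted p = 0.313). No pair of the 6 passed after adjustment, and a pair could not pass 0.05 there unless other pairs were as extreme.

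The genes most alike to each member over all 18 libraries, by Pearson r of log2 CPM, are given as a description. For the phosphate transporter gene they were HORVU5Hr1G062290, annotated as jasmonate-zim-domain protein 1, a repressor of jasmonate signalling (r = 0.919, rho = 0.818), HORVU0Hr1G012930 (r = 0.898) and HORVU2Hr1G101920 (r = 0.882). For the chloride channel gene they were HORVU7Hr1G080510, a phosphoenolpyruvate carboxylase 3 gene whose product fixes bicarbonate to feed organic acid synthesis (r = 0.957, rho = 0.913), HORVU4Hr1G022630, annotated as SOS3-interacting protein 1, a protein kinase (r = 0.920, rho = 0.779), and the ureide permease gene (r = 0.894, rho = 0.853). For the ureide permease gene they were HORVU4Hr1G022630 (r = 0.927, rho = 0.899), the chloride channel gene and HORVU2Hr1G087010 (r = 0.891, rho = 0.934). The likeness covers nitrate and genotype, and HORVU5Hr1G062290, HORVU7Hr1G080510 and HORVU4Hr1G022630 are, like the members, in the study's lists of genes called between LN and HN.

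For the major facilitator gene the most alike were HORVU4Hr1G009380 (r = 0.964, rho = 0.950), HORVU3Hr1G059130, annotated as OBP3-responsive gene 1 (r = 0.952, rho = 0.932), and HORVU3Hr1G078390, an F-box gene (r = 0.945, rho = 0.899). Of 17891 genes compared, 9 had an r over 0.9 with it, and 9 of those 9 were in the study's list of genes lower under LN in a pair of genotypes. The corresponding numbers over 0.9 were 1 for the phosphate transporter gene, 2 for the chloride channel gene and 1 for the ureide permease gene. With Spearman's rho in place of r, 1, 1, 2 and 2 of the 3 most alike genes stayed for the phosphate transporter, chloride channel, ureide permease and major facilitator genes.

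A second major facilitator gene, HORVU3Hr1G082460, was among those 9 genes (r = 0.914), and its identifier lies close to that of HORVU3Hr1G082580 on chromosome 3H, with 4 identifiers between them, of which 1 passed the filter on low counts. In GP it had 12.2, 14.1 and 13.3 CPM in LN leaves, against 34.8, 60.7 and 21.5 CPM in HN leaves. In M5 it had 8.51, 10.5 and 4.72 CPM in LN leaves, against 35.0, 20.6 and 33.2 CPM in HN leaves. In M4 it had 7.81, 12.2 and 8.49 CPM in LN leaves, against 8.12, 5.15 and 7.11 CPM in HN leaves. Its groups were separated in GP and M5 and overlapped in M4, as those of HORVU3Hr1G082580 did. Its genotype differences were -1.38 for M4 minus GP (adjusted p = 0.00378), which passed, and -0.60 for M5 minus GP (adjusted p = 0.175) and -0.77 for M4 minus M5 (adjusted p = 0.0921), which did not. Whether the 2 genes are near-identical copies that could share reads was not tested, since no sequence of this annotation was used here. The tested genes among the 5 identifiers on each side of the other 3 members had an r with them between -0.431 and 0.444.

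The study named 6 other membrane transport genes: a nitrate transporter gene of the NRT2 family, which carries nitrate into cells or the vacuole (HORVU7Hr1G098550), a heavy metal transport gene (HORVU3Hr1G088190), HORVU3Hr1G082460 and 3 lysine histidine transporter 1 genes, which carry amino acids (HORVU2Hr1G123160, HORVU7Hr1G074640 and HORVU7Hr1G074660). Of these, the nitrate and heavy metal transport genes were listed as higher under LN in GP and M4. HORVU3Hr1G082460 was listed as lower under LN in GP and M5. The lysine histidine transporter genes were named as raised in M4 beside the other genotypes pooled, a comparison made on HN libraries. Counts over the 6 genes that reuse these comparisons are therefore descriptions. None of the 6 was called by edgeR between LN and HN in a genotype, where its calls made up 0% of all genes for GP, 0% for M4 and 0.0631% for M5. At an unadjusted p under 0.05 stood 3 of the 6 for GP, 2 for M4 and 3 for M5, and DESeq2 called 1 of them in each genotype. A positive LN to HN value was found in 4, 6 and 4 of them in GP, M4 and M5, and in 9803, 9202 and 10017 of all 19021 tested genes. The nitrate transporter gene had LN to HN log2 fold changes of 2.49, 2.79 and 2.52 in GP, M4 and M5, and its r with the chloride channel and ureide permease genes over 18 libraries was -0.845 and -0.838. These r cover nitrate and genotype. The study listed the nitrate transporter gene as higher and the other genes as lower under LN, so a negative r follows in part from that choice. Between M4 and GP, HORVU2Hr1G123160 was higher at 1.85, given with no test because its choice had used the HN part of this comparison. HORVU3Hr1G082460, whose listing rested on LN against HN, was called lower. Counted as a description, edgeR called 2 of the 6 genes here, and it called 8.19% of all genes higher and 7.7% lower. HORVU2Hr1G123160 was higher in M4 than in M5 as well, at 2.08, likewise with no test, where 8.6% of all genes were called higher. None of the 6 was called between M5 and GP by edgeR or DESeq2 (2 had an unadjusted p under 0.05 in edgeR). Without both GP replicate 1 libraries the M4 to GP values of HORVU2Hr1G123160 and HORVU3Hr1G082460 were 2.27 and -1.48 (adjusted p = 0.0112 for HORVU3Hr1G082460). With no replicate block 3 of the 6 genes were called between M4 and GP and 4 between M4 and M5. These counts cover the lysine histidine transporter genes and are descriptions.

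The study's list of 18 genes lower under LN in a pair of genotypes, which holds 3 of the 4 members, had a median log2 fold change of 0.14 between LN and HN in M4 (10 positive and 8 negative), beside a median of -0.01 over all tested genes. It was chosen on these samples: the study called each of its genes in GP and M5 and none in M4, and low reads make a call less likely. How far this shaped the M4 levels of the list was not tested. The counts and medians of the list are therefore descriptions. In M4 minus GP, 12 of the 18 were called lower, against 7.7% of all genes, with a median of -1.25 (all genes -0.02). In M4 minus M5 8 were called lower, against 6.47% of all genes, with a median of -0.80 (all genes -0.02), and in M5 minus GP 3 were called lower, against 7.08% of all genes, with a median of -0.26 (all genes -0.003). The major facilitator gene belonged to the called genes of each comparison, and the chloride channel and ureide permease genes to none.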

How the data were processed

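Strand-specific RNA-seq of barley leaves was done in 18 samples. According to the study's methods, the authors trimmed single reads with Trimmomatic 0.36, removed ribosomal reads with sortMeRNA 2.1 and mapped and counted them with STAR 2.7.3a on the IBSC_v2 assembly. The deposited files hold whole-number read counts per gene for either strand and each strand alone. The reverse-strand counts were used, as 5.55% to 6.17% of a library's stranded gene reads lay on the other strand. Total reads per library ran between 1.53e+07 and 2.91e+07, and those counted to genes between 1.18e+07 and 2.23e+07; 14.9% to 16.7% mapped to several places and 5.05% to 5.92% to no gene, and these classes were left out of library sizes. Reads of near-identical genes can be lost as multiple mappings.

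Genes above 1 CPM in at least 3 libraries were tested (19021), with TMM scaling. A model with 6 groups and replicate numbers 1 to 4, as in the study, was fitted with edgeR 4.0.16 (quasi-likelihood F test) in R 4.3.3, with Benjamini-Hochberg adjustment over all tested genes at 0.05. CPM are from edgeR, and log2 CPM use a prior count of 2. Standard errors are the log2 fold change over the square root of F. The replicate number marks a harvest day in the labels, and pairs the samples by that; same-numbered libraries of different groups had a median correlation of 0.004 between their deviations from group means. Groups came from sample titles. Replicates differed by far more than counting noise (the lowest chi-square per degree of freedom was 13.9).

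The members and gene lists were chosen with earlier results of these data known. Genes named are the members, the other transport genes the study names, and for each member the 3 tested genes with mean CPM of at least 1 of highest Pearson r over the libraries. Alternatives were DESeq2 1.42.0, limma-voom 3.58.1, a likelihood ratio test, other scalings, filters, strand columns and blocks, fits of only the groups compared, and fits with each library left out. The permutation within harvest seasons, and the residuals after groups and replicate numbers, were added after seeing the data. No gene identifier of these files was in the reference table, so no sequence or coordinate is given.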

Additional observations from a re-analysis of the deposited data

How the results depend on the processing

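The 3 genotype calls of the major facilitator gene kept their direction and passed under every alternative run, with log2 fold changes of -1.78 to -1.73 for M4 minus GP, -0.97 to -0.83 for M5 minus GP and -1.03 to -0.89 for M4 minus M5, and with each library left out between -1.99 and -1.63, -0.99 and -0.65, and -1.03 and -0.77. No nitrate difference in the genotype that did not choose the gene, and no genotype or harvest difference of the other 3 genes, passed under any alternative run. Differences near 0 changed sign. Without both GP replicate 1 libraries, M4 minus GP was 0.11 for the phosphate transporter gene and 0.014 for the chloride channel gene, and M5 minus GP was 0.074 for the phosphate transporter gene. With the replicate block reduced to 2 harvest seasons, the phosphate transporter gene was -0.0052 in M4 minus M5, the chloride channel gene -0.0058 and the ureide permease gene -0.20 in M5 minus GP. With no replicate block the ureide permease gene was -0.16 in M5 minus GP, 0.90 in M4 minus GP and 1.07 in M4 minus M5 (0.90 with the block of 2 seasons), against 0.27 and 0.23 for M4 minus GP and M4 minus M5 with the block. In the exact permutation within harvest seasons the adjusted p was 0.188 for the correlation of the chloride channel and ureide permease genes. It was 0.313 for that of the ureide permease and major facilitator genes. A pair could not pass 0.05 there unless other pairs were as extreme, so this permutation does not decide whether either correlation holds. In fits of only the groups compared, M5 minus GP was -0.076 for the chloride channel gene and -0.25 for the ureide permease gene, whose M4 minus M5 was -0.015. For spring minus November, limma-voom gave -0.0083 for the phosphate transporter gene and -0.056 for the major facilitator gene, and the major facilitator gene was at -0.0043 with no filter on low counts and -0.012 with filterByExpr. With each library left out, the phosphate transporter gene ran between -0.10 and 0.051 (M4 minus GP), -0.35 and 0.14 (M5 minus GP), -0.17 and 0.36 (M4 minus M5), and -0.20 and 0.35 (spring minus November). The chloride channel gene ran between -0.28 and 0.055, -0.15 and 0.23, and -0.38 and 0.092 in the 3 genotype comparisons, the ureide permease gene between -0.21 and 0.64, -0.43 and 0.31, and -0.040 and 0.72, and the major facilitator gene between -0.091 and 0.20 in spring minus November. The cause was not tested.

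The LN minus HN value of the ureide permease gene in GP was -1.83 with no replicate block, -1.84 with a block of 2 seasons and -1.97 in a fit of only the groups compared, against -1.41. With each library left out, LN minus HN ran between 1.06 and 1.34 (phosphate transporter gene), -0.83 and -0.39 (chloride channel gene), -1.85 and -0.97 (ureide permease gene) and -2.06 and -1.43 (major facilitator gene) in GP, and between -3.32 and -1.78 (ureide permease gene) and -3.39 and -2.95 (major facilitator gene) in M5. Leaving out the replicate block changed no call of the 4 genes.

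Over all genes, calls between LN and HN numbered 0 to 98 in GP (98 in a fit of only the groups compared; 0 to 7 with a library left out), 0 to 21 in M4 and 2 to 196 in M5 (1 to 53 with a library left out). The variation between replicates, 50.8% for the ureide permease gene, limits the precision of these values.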
